A study of Mus musculus with 6 samples.

Results

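The metabotropic glutamate (mGlu) receptors are the G protein-coupled receptors for glutamate, and the genes described here are Grm2, Grm3, Grm4, Grm5, Grm7 and Grm8. These 6 genes were taken by symbol from the GENCODE M21 annotation, out of 55401 gene identifiers in the count files. The rule that picks them is their symbol and uses no measured value, but they were chosen for description with earlier results of these data known. All 6 passed the filter on low counts that left 19969 genes for testing. Grm6, a further group III gene, is given beside them.

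RNA was sequenced from the dorsal hippocampus of 6 WT mice, of which 3 had received Control-ASO and 3 Snhg11-ASO, to ask which transcripts differ when the long noncoding RNA Snhg11 is reduced. Per the study's methods, the animals were 4-month-old WT littermates of the Ts65Dn line that received 50 μg of antisense oligonucleotide in the dentate gyrus of each hemisphere and were dissected 3 days later. The Snhg11-ASO directs cleavage of Snhg11 RNA by RNase H, whereas the Control-ASO is a gapmer with a scrambled sequence. The oligonucleotide was placed in the dentate gyrus, but the RNA came from the whole dorsal part of the hippocampus, with its CA fields, interneurons and glia. The level of Snhg11 itself was 551, 436 and 209 CPM under Control-ASO against 139, 65.4 and 69.4 CPM under Snhg11-ASO, a mean of 22.9% of Control-ASO. CPM are counts on the expected strand per 1000000 of the library's counts on tested genes, after TMM scaling of that total. Counts on genes ranged from 28951250 to 34293344 per sample in Control-ASO and from 38556524 to 43997537 in Snhg11-ASO.

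The family is divided by sequence, coupling and pharmacology into groups I, II and III. Group I receptors, here mGlu5 from Grm5, couple to Gq, activate phospholipase C and release calcium from internal stores, and they sit mostly at the rim of the postsynaptic density, where Homer proteins anchor them. Group II receptors (mGlu2 and mGlu3) and group III receptors (mGlu4, mGlu6, mGlu7 and mGlu8) couple to Gi/o, lower cyclic AMP and, on axon terminals, reduce transmitter release. In the hippocampus mGlu5 is the main group I receptor of pyramidal and granule cells, and activating it can induce long-term depression. mGlu2 is known from the mossy fibres of dentate granule cells, mGlu3 from glia as well as neurons, mGlu7 from the active zones of many terminals, and mGlu6 from the retina.

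Promoter windows were at hand for 4 of the 6 genes, Grm2, Grm3, Grm7 and Grm8, in RefSeq's GRCm38.p6 table, and none for Grm4 and Grm5. The windows are given as a description, and a link between promoter sequence and the differences was not tested. Each window holds 250 bases before and 50 bases after an annotated start, and where several starts are listed the one nearest the GENCODE gene start was taken. Capitals mark the GC box letters GGGCGG, searched on both strands, with adjoining or overlapping matches running together.
Grm2: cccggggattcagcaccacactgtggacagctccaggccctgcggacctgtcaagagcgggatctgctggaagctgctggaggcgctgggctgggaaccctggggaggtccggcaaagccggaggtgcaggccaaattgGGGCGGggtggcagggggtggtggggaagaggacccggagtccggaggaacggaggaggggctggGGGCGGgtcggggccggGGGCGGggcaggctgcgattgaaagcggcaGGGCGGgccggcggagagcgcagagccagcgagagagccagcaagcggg
Grm3: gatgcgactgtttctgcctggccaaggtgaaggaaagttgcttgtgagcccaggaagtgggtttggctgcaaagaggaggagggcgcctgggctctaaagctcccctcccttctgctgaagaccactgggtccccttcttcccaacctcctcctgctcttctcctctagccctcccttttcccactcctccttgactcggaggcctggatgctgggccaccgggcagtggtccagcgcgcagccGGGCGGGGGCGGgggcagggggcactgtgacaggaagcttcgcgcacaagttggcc
Grm7: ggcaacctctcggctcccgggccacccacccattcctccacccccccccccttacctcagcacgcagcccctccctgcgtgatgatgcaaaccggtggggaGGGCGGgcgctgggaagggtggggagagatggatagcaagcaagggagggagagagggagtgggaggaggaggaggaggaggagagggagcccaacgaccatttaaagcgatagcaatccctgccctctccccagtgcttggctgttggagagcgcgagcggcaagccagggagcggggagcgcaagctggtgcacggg
Grm8: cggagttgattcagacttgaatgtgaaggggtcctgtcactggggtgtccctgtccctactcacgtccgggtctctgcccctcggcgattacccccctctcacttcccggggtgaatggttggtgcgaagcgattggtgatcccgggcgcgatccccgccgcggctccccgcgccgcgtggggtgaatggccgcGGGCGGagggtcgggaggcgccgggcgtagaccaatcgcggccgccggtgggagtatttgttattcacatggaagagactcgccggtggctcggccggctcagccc
The windows lie at chr9:106656060-106656359 on the minus strand for Grm2, chr5:9725303-9725602 on the minus strand for Grm3, chr6:110645348-110645647 on the plus strand for Grm7 and chr6:28135097-28135396 on the minus strand for Grm8. The GC box occurred 4 times in the Grm2 window, 2 times in that of Grm3 and 1 time each in those of Grm7 and Grm8, and 35.7% of all 32851 windows of this length hold it. The TATA box letters TATAAA (13.6% of all windows), the E-box CACGTG (7.15%) and the cyclic AMP response element TGACGTCA (1.79%) had 0 matches in all 4 windows. CCAAT, present in 37.4% of all windows, was found 2 times in the Grm8 window and 1 time in that of Grm2. The 4 windows had a GC content of 63.7% to 72%, against a median of 52.7%, and 11 to 33 CG dinucleotides, against a median of 7. Grm4 and Grm5 are named only.

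On GRCm38 the genes differ widely in size. Grm2 (ENSMUSG00000023192) is compact, at chr9:106643095-106656082, and spans 13 kb, of which 37.7% is exonic. Grm4 (ENSMUSG00000063239; chr17:27422387-27521403) spans 99 kb and Grm3 (ENSMUSG00000003974; chr5:9485541-9725170) 240 kb. Grm5 (ENSMUSG00000049583; chr7:87584168-88134907) spans 551 kb, Grm8 (ENSMUSG00000024211; chr6:27275119-28135178) 860 kb and Grm7 (ENSMUSG00000056755; chr6:110645581-111567230) 922 kb. In these 3 genes only 0.639% to 1.86% of the span is exonic. Grm5 and Grm7 are on the plus strand, and the other genes are on the minus strand. The longest coding transcript has 6 exons in Grm2 and Grm3, 10 in Grm5 and Grm7, and 11 in Grm4 and Grm8.

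Grm5 was by far the most abundant of the 6 transcripts in the dorsal hippocampus. Levels of different genes are compared as CPM per kb of merged exon length. In Control-ASO samples Grm5 stood at 43.2 ± 0.55 (SD, n = 3), followed by Grm3 at 21.5 ± 2.59, Grm7 at 16.3 ± 0.148 and Grm2 at 5.96 ± 1.07. Grm8 at 1.38 ± 0.64 and Grm4 at 1.29 ± 0.174 were lowest and did not differ beyond their spread. The order of Grm3 and Grm7 depended on the length used, since per kb of the longest transcript Grm7 stood at 22.8 ± 0.206 and Grm3 at 21.5 ± 2.59 in Control-ASO. In Snhg11-ASO samples the order per kb of exons was again Grm5 (35.9 ± 3.91), Grm3 (15 ± 5.49) and Grm7 (10.4 ± 1.82), with the samples of Grm3 and Grm7 overlapping. Grm6, the receptor of retinal ON bipolar cells, had 0 counts in each Control-ASO sample, which allows up to 0.0891 to 0.102 CPM (3 counts, counting error only), and 1, 0 and 1 counts under Snhg11-ASO, so it was not tested.

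The mean level of all 6 mGlu genes was lower under Snhg11-ASO. Log2 fold changes from edgeR's quasi-likelihood test, here and throughout as Snhg11-ASO over Control-ASO, ran from -0.85 for Grm8 to -0.27 for Grm5, with a median of -0.60 against 0.0097 over all genes tested, of which 48.3% were lower. For Grm3, Grm4, Grm5 and Grm7 every Snhg11-ASO sample lay below every Control-ASO sample, which held for 7.70% of all genes tested, while 7.73% had every Snhg11-ASO sample above. Of the 6 genes, 4 (Grm4, Grm5, Grm7 and Grm8) had an unadjusted p under 0.05, all lower, against 8.11% of genes in either direction, 4.43% in this direction and 3.68% in the other. After Benjamini-Hochberg adjustment across the 19969 genes, 0 of the 6 passed 0.05 in edgeR, as did 0 (0%) of the whole table, in which 1619 genes had an unadjusted p under 0.05. DESeq2 on the same counts called 250 genes, 1.31% of those with an adjusted p, and 0.777% as lower. Grm4 and Grm7 were among them. Without Snhg11-ASO replicate 1, DESeq2 called 2.19% of genes, Grm4 and Grm7 included. Without replicate 2 it called 1.36%, Grm7 but not Grm4, and without replicate 3 it called 1.15% and 0 of the 6. In bulk tissue, fewer cells of a type and less RNA per cell cannot be told apart. The study's methods give 3 injected mice per group, and the labels number the samples within a group without naming animals. The p-values measure the spread between these samples, which may in part be technical.

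**Figure D1:**
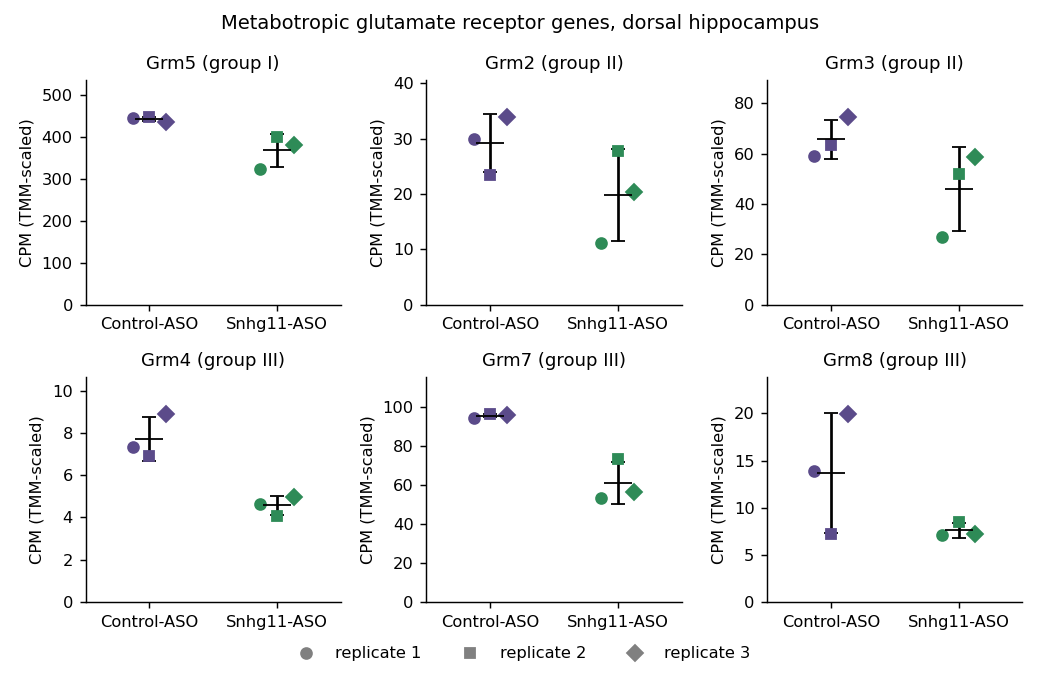
Level of each mGlu gene in CPM (y axis, from 0) in the 3 Control-ASO (purple) and 3 Snhg11-ASO (green) samples, with the replicate number given by the symbol and the mean ± SD in black. Groups do not overlap for Grm3, Grm4, Grm5 and Grm7, and Control-ASO replicate 2 of Grm8 lies among the Snhg11-ASO samples.

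Group I was represented by Grm5, whose product mGlu5 is the Gq-coupled receptor of hippocampal principal cells. Grm5 was counted at 444, 447 and 436 CPM in Control-ASO replicates 1 to 3, against 323, 400 and 380 CPM in replicates 1 to 3 of Snhg11-ASO. The Control-ASO samples were nearly level, with a coefficient of variation of 1.27% where counting alone gives 0.837%, and all Snhg11-ASO samples lay below them, replicate 1 lowest. The Snhg11-ASO mean was 83.1% of the Control-ASO mean (368 ± 40.1 against 443 ± 5.64 CPM; SD, n = 3 per group). The edgeR fit gave a log2 fold change of -0.27 ± 0.11 (SE), with unadjusted p = 0.0397 and adjusted p = 0.591, the smallest difference of the 6 genes. The exact permutation test gave p = 0.1, the smallest p that 3 samples against 3 allow. Once a smooth trend over genomic span had been taken out of every library, Grm5 stood at -0.04 (adjusted p = 0.949), and without Snhg11-ASO replicate 1 at -0.18.

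Group II comprised Grm2 and Grm3, both of which code for Gi/o-coupled receptors that curb glutamate release. Grm2 was counted at 30, 23.5 and 33.9 CPM in Control-ASO and at 11.2, 27.8 and 20.3 CPM in Snhg11-ASO. The groups overlapped, with Snhg11-ASO replicate 2 inside the Control-ASO range and replicate 1 far below the rest. In edgeR the log2 fold change came to -0.56 ± 0.32 (SE), with unadjusted p = 0.123 and adjusted p = 0.691, and an exact permutation p of 0.2. It was -0.28 without Snhg11-ASO replicate 1 and -0.89 without replicate 2, so its size rested on single libraries.

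Grm3, whose receptor is found on astrocytes as well as at synapses, was counted at 59.2, 63.4 and 74.5 CPM in Control-ASO and at 26.9, 52.1 and 58.6 CPM in Snhg11-ASO. The groups did not overlap, but the gap between the highest Snhg11-ASO and the lowest Control-ASO sample was small beside the distance to Snhg11-ASO replicate 1. In edgeR the log2 fold change came to -0.52 ± 0.27 (SE), with unadjusted p = 0.101 and adjusted p = 0.68, and an exact permutation p of 0.1. Without Snhg11-ASO replicate 1 it was -0.25.

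Group III comprised Grm4, Grm7 and Grm8 among the genes tested. Grm7 codes for a receptor of low glutamate affinity at the active zone. It was counted at 94.8, 96.4 and 96.2 CPM in Control-ASO samples and at 53.6, 73.4 and 56.5 CPM in Snhg11-ASO samples. Every Snhg11-ASO sample was clearly below the tight Control-ASO range, whose coefficient of variation of 0.906% was under the 1.8% that counting alone gives. The mean of Snhg11-ASO was 63.8% of that of Control-ASO (61.2 ± 10.7 against 95.8 ± 0.868 CPM; SD, n = 3 per group). In edgeR the log2 fold change came to -0.65 ± 0.13 (SE), with unadjusted p = 0.00163 and adjusted p = 0.379, and an exact permutation p of 0.1, and the gene stood at rank 86 of the genes tested by p. DESeq2 gave an adjusted p of 0.0165, which was 0.116 without Snhg11-ASO replicate 3. After the correction for genomic span the log2 fold change was -0.34 (unadjusted p = 0.0218 and adjusted p = 0.623 in edgeR).

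Grm4, coding for a presynaptic receptor best known from cerebellar parallel fibres, was the least abundant gene by CPM, with 171 to 299 counts per sample. It was measured at 7.34, 6.9 and 8.88 CPM in Control-ASO and at 4.64, 4.09 and 4.99 CPM in Snhg11-ASO. The groups were apart, and Snhg11-ASO replicate 1, the lowest library for the other 5 genes, lay between the other Snhg11-ASO samples here. In edgeR the log2 fold change came to -0.75 ± 0.18 (SE), with unadjusted p = 0.00407 and adjusted p = 0.46, and an exact permutation p of 0.1. DESeq2 gave an adjusted p of 0.0244, which was 0.178 without Snhg11-ASO replicate 2 and 0.066 without replicate 3. The correction for genomic span left the log2 fold change of Grm4 at -0.73, and leaving out any single sample kept it between -0.83 and -0.64.

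Grm8, coding for a presynaptic receptor of high glutamate affinity, varied most among the Control-ASO samples, at 13.9, 7.19 and 19.9 CPM, against 7.08, 8.52 and 7.19 CPM in Snhg11-ASO. The Snhg11-ASO samples were close together, and Control-ASO replicate 2 lay among them. The coefficient of variation was 46.4% in Control-ASO and 10.5% in Snhg11-ASO, where counting alone gives 4.77% and 5.65%. In edgeR the log2 fold change came to -0.85 ± 0.34 (SE), with unadjusted p = 0.0436 and adjusted p = 0.598, and an exact permutation p of 0.2. Leaving out Control-ASO replicate 2 gave -1.15 and leaving out its replicate 3 gave -0.48, while the correction for genomic span gave -0.54.

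The levels per kb of exons were also summed by receptor group. Group I (Grm5) stood at 43.2 ± 0.55 in Control-ASO and 35.9 ± 3.91 in Snhg11-ASO, group II at 27.5 ± 3.33 and 19.1 ± 6.91, and group III at 18.9 ± 0.802 and 11.9 ± 1.83 CPM per kb (SD, n = 3). The Snhg11-ASO mean of group II rested on replicate 1, since replicates 1 to 3 stood at 11.1, 22.8 and 23.4. Grm5 made up 45.4% to 49.9% of the sum of the 6 genes in Control-ASO and 51.5% to 59.2% in Snhg11-ASO samples. Group III made up 20.9% to 21.4% in Control-ASO and 15.6% to 19.9% in Snhg11-ASO. Most of the group III sum was Grm7, at 16.3 of 18.9 CPM per kb in Control-ASO and 10.4 of 11.9 in Snhg11-ASO. Grm3 likewise was most of group II, at 21.5 of 27.5 CPM per kb in Control-ASO. The share of group II ranged from 29.1% to 33.4% in Control-ASO and from 20.9% to 32.6% in Snhg11-ASO. Shares of groups I and III thus did not overlap between conditions and those of group II did. These shares are a description that uses merged exon length only, and the difference between receptor groups was not tested.

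**Figure D2:**
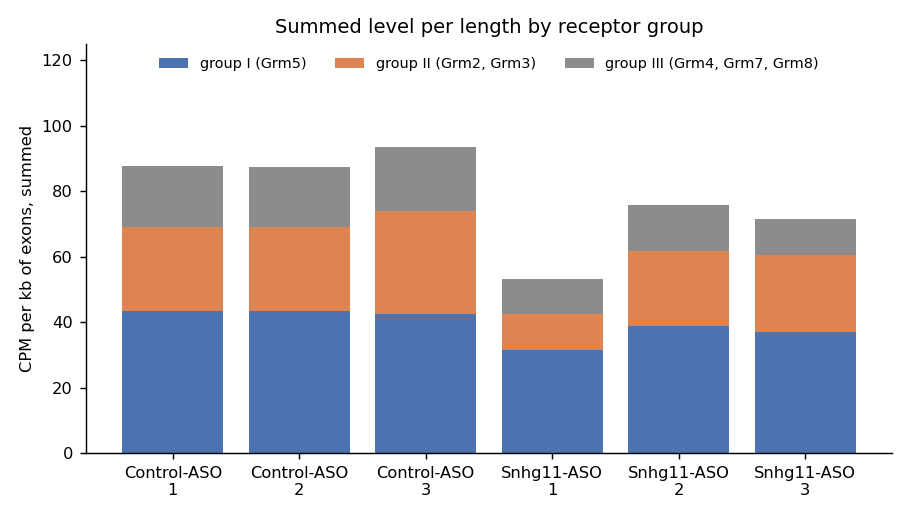
Summed level of the 6 mGlu genes in each sample (y axis, CPM per kb of merged exons, from 0), stacked by receptor group. The sums are 87.5 to 93.8 in Control-ASO, and replicates 1 to 3 of Snhg11-ASO reach 53.2, 75.8 and 71.6.

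The Snhg11-ASO samples differed among themselves in how low the receptor genes were. Relative to the Control-ASO mean of each gene on the log2 CPM scale, the median of the 6 genes stood at -0.83, -0.36 and -0.56 in Snhg11-ASO replicates 1 to 3, and at -0.0045, -0.1 and 0.2 in Control-ASO replicates 1 to 3. The median over all genes tested lay within 0.01 of 0 in each of these samples. Snhg11-ASO replicate 1 was lowest for Grm2 (-1.36), Grm3 (-1.28), Grm5 (-0.46), Grm7 (-0.84) and, by a small margin, Grm8 (-0.82). For Grm4 the lowest sample was Snhg11-ASO replicate 2 (-0.9). Without Snhg11-ASO replicate 1 all 6 log2 fold changes were still negative, with a median of -0.42 against 0.0017 over all genes tested. Unadjusted p-values in that edgeR fit were 0.00228 for Grm7, 0.00453 for Grm4 and 0.0561 to 0.195 for the other genes. After adjustment 0 of the 6 passed, while 2 of the 20226 genes tested did.

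Across the 6 samples the log2 CPM of the genes moved together to varying degrees. Over the 15 pairs of genes, Pearson's r ranged from 0.54 for Grm3 and Grm8 to 0.93 for Grm5 and Grm7. The group II genes Grm2 and Grm3 had r = 0.90, and each also had r = 0.90 with Grm5. These values share the group difference and the low level of Snhg11-ASO replicate 1. With group means removed, r was 0.84 for Grm2 and Grm3 and 0.88 for Grm2 and Grm5, but under 0.5 for 7 of the 15 pairs and -0.52 for Grm4 and Grm7.

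The genes most like each receptor gene were sought among 13663 other protein-coding genes, by Pearson's r of log2 CPM over the 6 samples. For Grm5 they were Serac1 (0.995), Dhx35 (0.992) and Magi1 (0.992), a synaptic scaffold gene that also spans 608 kb. For Grm2 they included Pgbd1 (0.988) and Mmaa (0.986), and for Grm3 they were Car8 (0.997), Mpi (0.996) and Phka1 (0.996). For Grm4 they were Sncb (0.993), which codes for beta-synuclein, Cmss1 (0.988) and Tmem132d (0.986). For Grm7 they were Gucy1a2 (0.991), Brwd1 (0.991) and Nsmce2 (0.991). For Grm8 they were Rspo2 (0.997), a secreted enhancer of Wnt signalling, Oxr1 (0.993) and Ing1 (0.985). With 6 samples and this many genes, high values of r are found for nearly any profile, and they are given as a description.

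Across all genes tested, the median difference was below 0 chiefly in genes that span over 200 kb. Among the 223 tested genes that span over 500 kb, to which Grm5, Grm7 and Grm8 belong, the median log2 fold change was -0.37 (quartiles -0.62 and -0.15) and 51.1% had all Snhg11-ASO below all Control-ASO samples. Grm7 at -0.65 and Grm8 at -0.85 lay below the lower quartile of that class, and Grm5 at -0.27 lay above its median. Among the 763 genes of 200 to 500 kb the median was -0.13, with 22.1% not overlapping and lower, and Grm3 at -0.52 lay below the lower quartile of -0.32. For genes of 100 to 200 kb, a class without any of the 6 genes, the median was -0.02. The median was 0.03 for genes of 20 to 100 kb, the class of Grm4 at -0.75, and 0.01 for genes of up to 20 kb, the class of Grm2 at -0.56. The lower quartiles of the classes of Grm4 and Grm2 were -0.12 and -0.18.

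**Figure D3:**
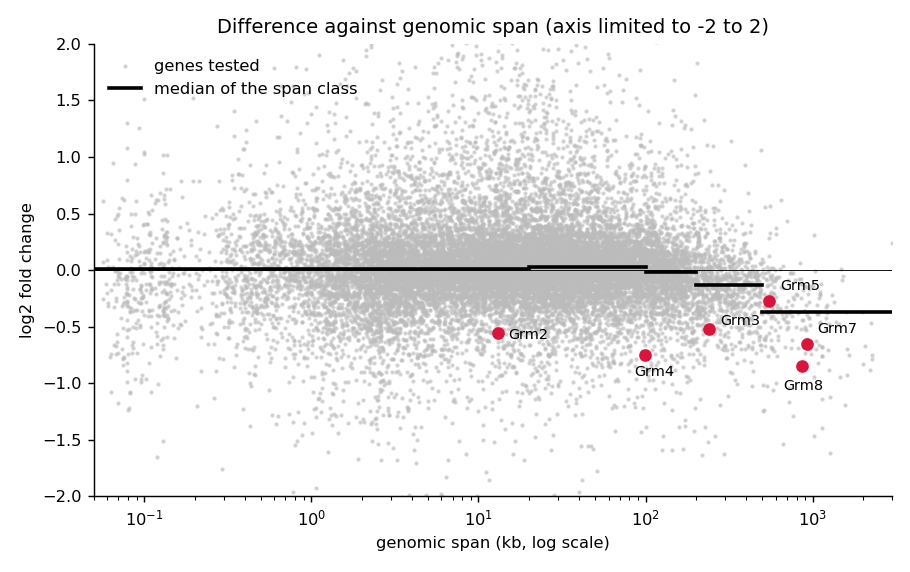
Log2 fold change (y axis, limited to -2 to 2) against genomic span (x axis, kb, log scale) for 19945 tested genes, of which 129 fall outside the plotted range. Red points are the 6 mGlu genes, and black lines are the medians of 5 span classes, from 0.01 in the shortest to -0.37 in the longest.

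After the correction for genomic span all 6 genes were still lower, with a median of -0.47. Grm4 (-0.73), Grm2 (-0.62), Grm8 (-0.54), Grm3 (-0.40) and Grm7 (-0.34) kept more of their difference than Grm5 (-0.04). The correction was not complete for the longest genes. In that fit the median was still -0.09 for genes over 500 kb, the class of Grm5, Grm7 and Grm8. The unadjusted p in that edgeR fit was 0.00499 for Grm4, 0.0218 for Grm7 and 0.0877 to 0.756 for the other genes. After adjustment 0 of the 6 passed, as did 0 of the 19969 genes tested.

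**Figure D4:**
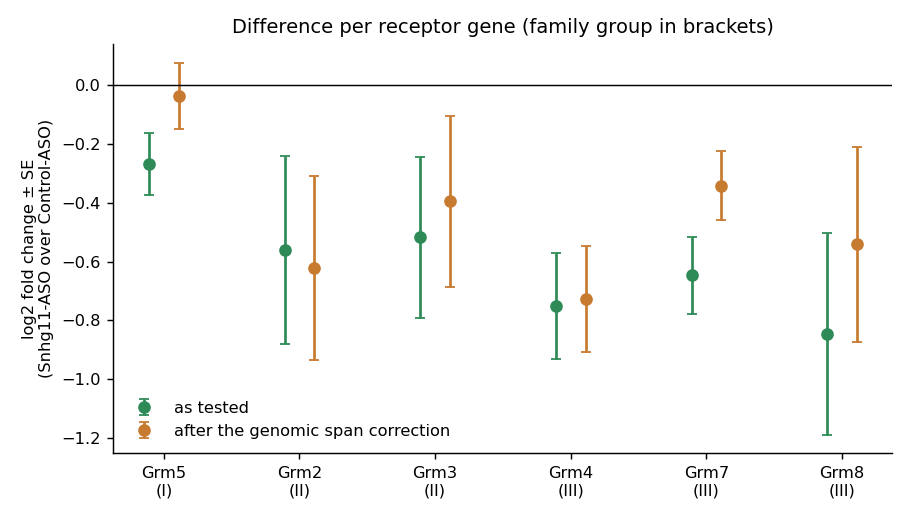
Log2 fold change ± standard error from edgeR for the 6 mGlu genes, as tested (green) and after the genomic span correction (orange), with the receptor group in brackets. The correction moves Grm5 from -0.27 to -0.04 and Grm7 from -0.65 to -0.34, and leaves Grm4 at -0.73.

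Annotated genes inside the long receptor genes gave further counts from the same loci. Within Grm5 and on its strand lie 5 genes of the provisional class TEC, all of them lower in mean, and their reads cannot be told apart from unspliced Grm5 RNA. Gm44846 (chr7:88119158-88122400) stood at 23.8, 25 and 21.3 CPM in Control-ASO and 17.2, 20.6 and 17.7 CPM in Snhg11-ASO, a log2 fold change of -0.34 (SE 0.13, unadjusted p = 0.0324 and adjusted p = 0.582 in edgeR). Gm44847 (chr7:88082813-88084803) stood at 16.8, 15.8 and 15.1 against 10.3, 14 and 11.1 CPM, with -0.43 (SE 0.15, unadjusted p = 0.0276 and adjusted p = 0.564 in edgeR). The groups of both genes were apart, as were those of Gm44927 (-0.45), while those of Gm44926 (-0.29) and Gm44848 (-0.28) overlapped. Groups were apart and lower for 7.70% of all genes tested, and for 51.1% of genes over 500 kb, the class of Grm5. These log2 fold changes, from -0.45 to -0.28, were all further from 0 than the -0.27 of Grm5 itself, and that difference was not tested.

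In Grm3, the provisional gene Gm42455 on the same strand had 19 to 71 counts per sample, overlapping groups and a log2 fold change of -0.51 (edgeR adjusted p = 0.791). Within Grm7 lies Gm20386, a processed pseudogene on the same strand with 22 to 32 counts per sample (-0.33, edgeR adjusted p = 0.813). Gm20387, on the opposite strand (chr6:110639753-110645916), lies mostly upstream of Grm7 and overlaps its start. It had 2.11, 1.84 and 2.61 CPM in Control-ASO and 2.96, 2.27 and 2.29 CPM in Snhg11-ASO. Its log2 fold change was 0.20 (SE 0.24, edgeR adjusted p = 0.85) and its groups overlapped. Pooled over the 6 samples, counts on the strand opposite to the receptor genes themselves were 0.0755% to 0.866% of their total, so reads of the other strand were few. For Grm3 they were highest in Snhg11-ASO replicate 1, at 42 beside 1025 on its own strand, and 8 to 16 in the other samples.

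Genes around the receptors lay on both sides of 0. The 7 lists of other class C receptors, scaffolds, group III partners, Gq and Gi/o pathway genes, regulators of desensitisation and glutamate supply held 88 genes, of which 84 were tested. Of these, 49 (58.3%) were lower and 35 higher, where 48.3% of all genes tested were lower, with a median log2 fold change of -0.03. At an unadjusted p under 0.05 there were 8 lower genes and 1 higher gene (4.43% and 3.68% of all genes tested), and 0 passed after adjustment in edgeR.

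**Figure D5:**
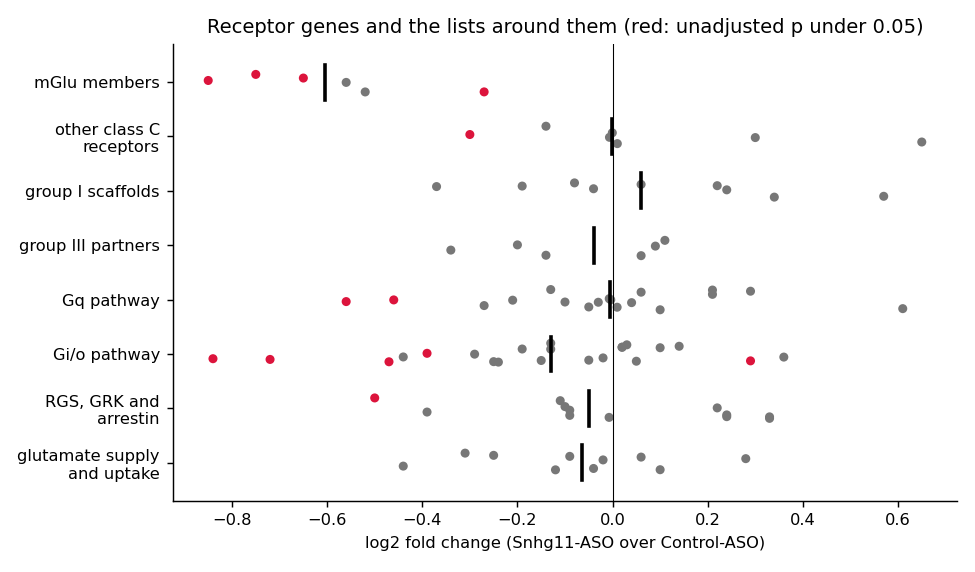
Log2 fold change (x axis) of each tested gene in the mGlu family list and 7 lists around it (rows), red where the unadjusted p is under 0.05, with the list median as a black bar. The 6 mGlu genes all lie left of 0, with a median of -0.60, while the other lists lie on both sides, with medians from -0.13 to 0.06.

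The scaffolds that hold group I receptors went in either direction, with 4 of 9 lower and 5 higher. Homer1, whose products link mGlu5 to calcium stores and Shank proteins, stood at 172, 155 and 170 CPM in Control-ASO and at 260, 192 and 177 CPM in Snhg11-ASO. All Snhg11-ASO samples were above all Control-ASO samples, replicate 1 by most. The edgeR fit gave a log2 fold change of 0.34 ± 0.15 (SE), with unadjusted p = 0.0611 and adjusted p = 0.631, and 0.16 without Snhg11-ASO replicate 1. The direction is opposite to that of Grm5 in the same samples. Among the 6 group III partners, 3 were lower and 3 higher, and Grip1, a PDZ-domain protein that spans 633 kb, had the smallest p at -0.34 (unadjusted p = 0.0823, adjusted p = 0.66), or -0.17 without Control-ASO replicate 1 and -0.08 after the span correction. Elfn1, which codes for an adhesion protein that recruits mGlu7 to synapses on interneurons, stood at -0.20, and Pick1, which codes for a protein that binds the tail of mGlu7, at -0.14.

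In the Gq pathway, downstream of group I receptors, 10 of 18 genes were lower and 8 higher. Plcb1, the phospholipase C isoform abundant in hippocampus, was counted at 250, 305 and 282 CPM in Control-ASO and at 187, 234 and 186 CPM in Snhg11-ASO. The groups were apart, and edgeR gave a log2 fold change of -0.46 ± 0.13 (SE), with unadjusted p = 0.00864 and adjusted p = 0.498. It was -0.21 after the span correction, the gene spanning 689 kb. Gnaq, which codes for the G protein subunit itself, stood at 0.06.

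The Gi/o pathway, used by groups II and III, was the longest of these lists. Of its 22 genes 14 were lower and 8 higher, and 5 had an unadjusted p under 0.05, 4 of them lower, beside 8.11% and 4.43% of all genes tested. Gnai1, an inhibitory G protein subunit, stood at 120, 111 and 106 CPM in Control-ASO and at 58.6, 75 and 71.3 CPM in Snhg11-ASO. The groups were far apart, and edgeR gave a log2 fold change of -0.72 ± 0.12 (SE), with unadjusted p = 4.6e-04 and adjusted p = 0.308, with an adjusted p of 9.8e-04 in DESeq2. Its span is 95.2 kb, and the span correction left it at -0.70. Gnai3, another inhibitory subunit, stood at 0.29 (unadjusted p = 0.0443), and is named after its value was seen.

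Some of the adenylyl cyclases, though not all, are restrained by Gi/o proteins. Of the cyclases in this list, Adcy1, Adcy3, Adcy8 and Adcy5 (-0.19, unadjusted p = 0.116 in edgeR) had every Snhg11-ASO value below the Control-ASO range, as did 7.70% of all genes tested. The groups of Adcy2 (-0.24), Adcy6 (-0.13), Adcy9 (0.05) and Adcy7 (0.36) overlapped. Adcy1, a calcium-stimulated cyclase abundant in granule and CA neurons, stood at 1200, 1600 and 1332 against 994, 1092 and 896 CPM (-0.47, unadjusted p = 0.0138). Adcy8, the other calcium-stimulated cyclase, stood at 30.9, 22.5 and 32.7 against 11.2, 18.2 and 18.6 CPM (-0.84, unadjusted p = 0.00923). Adcy3 stood at 49.7, 38.9 and 40.2 against 30.4, 35.2 and 32.4 CPM (-0.39, unadjusted p = 0.0178). The adjusted p-values of Adcy1, Adcy8 and Adcy3 were 0.53, 0.498 and 0.543 in edgeR.

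Among the 12 regulators that end receptor signalling, 7 were lower and 5 higher. Grk3, a G protein-coupled receptor kinase, had 126, 84.2 and 115 CPM in Control-ASO and 77, 73.1 and 79.6 CPM in Snhg11-ASO, with the groups apart (-0.50, unadjusted p = 0.0133 and adjusted p = 0.528 in edgeR). Among other class C receptors, 4 of the 7 tested were lower. Gabbr2, the GABA-B receptor subunit that couples to Gi/o, stood at 221, 222 and 203 against 173, 197 and 154 CPM (-0.30, unadjusted p = 0.0295 and adjusted p = 0.571 in edgeR), and at -0.15 after the span correction. Its obligatory partner Gabbr1, which spans 29.1 kb, stood at 0.01. Of the 10 genes of glutamate supply and uptake, 7 were lower and 0 had an unadjusted p under 0.05. The smallest p was that of Glul, glutamine synthetase of astrocytes (-0.31, unadjusted p = 0.102 and adjusted p = 0.68 in edgeR). It was -0.19 without Snhg11-ASO replicate 1.

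Marker genes of the cell types that carry these receptors were present in all samples, and 0 of them had 0 counts throughout. The summed level of 10 interneuron markers was 683 to 738 CPM in Control-ASO and 555 to 669 CPM in Snhg11-ASO, with 8 of 10 lower. The 5 general neuronal markers, all lower, summed to 3828 to 4194 CPM in Control-ASO and to 3245, 3934 and 3547 CPM in Snhg11-ASO replicates 1 to 3. The 9 granule cell markers, 5 of 9 lower, summed to 521 to 638 CPM in Control-ASO and 584 to 694 CPM in Snhg11-ASO. The 9 pyramidal cell markers, 6 of 9 higher, summed to 920 to 1060 and 1079 to 1189 CPM. The sums of pyramidal and interneuron markers thus did not overlap between groups, and they went in opposite directions. The 8 astrocyte markers, of interest for Grm3 and Grm5, ranged from 1133 to 2953 CPM in Control-ASO and from 1480 to 3482 CPM in Snhg11-ASO, with 4 of 8 lower. The 7 oligodendrocyte markers, all higher, summed to 1586 to 2914 and 1656 to 3591 CPM, the 4 oligodendrocyte precursor markers to 148 to 169 and 134 to 149 CPM, the 6 microglial markers to 192 to 351 and 119 to 348 CPM, and the 5 endothelial markers to 110 to 141 and 113 to 150 CPM. The 7 choroid plexus markers, a tissue beside the hippocampus, ran from 36.5 to 1899 CPM in Control-ASO and from 68.2 to 1301 CPM in Snhg11-ASO, a wide spread within both groups. The part of cell composition in the levels of the mGlu genes was not tested.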

How the data were processed

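Total RNA of 6 dorsal hippocampi was depleted of ribosomal RNA, made into stranded libraries and sequenced in pairs of 50 bases. The authors deposited raw counts of read pairs per gene for each sample in STAR's layout, with STAR 2.5.2a and GRCm38 named in the submitters' processing notes. The study's methods name another counter. The strand setting that fits the kit was used, on which 96.2% to 96.8% of stranded counts fall. Summary lines, 43.5% to 51.4% of pairs, were left out. GENCODE M21 gave symbols to 55141 of 55401 identifiers.

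Genes were filtered with filterByExpr (minimum count 10), scaled by TMM and tested with edgeR 4.0.16 (quasi-likelihood, two-sided, Benjamini-Hochberg threshold 0.05; R 4.3.3), and log2 CPM used a prior count of 2. DESeq2 1.42.0 and limma-voom 3.58.1 were alternatives. The authors removed 1 Snhg11-ASO sample, not identified in the sources used here, and all 6 samples were kept. The scripts were tested on simulated data. Members and lists were chosen with earlier results of these data known. Named were the 6 genes, their family, Snhg11, up to 4 genes per list with p under 0.05 or else the one with the smallest p, genes of at least 10 mean counts that overlap a member, and the 3 protein-coding genes of mean CPM of at least 1 most correlated with each member. Some genes that this rule would name are not reported here. Adcy2, Adcy5, Adcy6, Adcy7, Adcy9, Gabbr1, Gnaq, Gnai3, Elfn1 and Pick1 were added after their values were seen. Same-numbered samples of the groups deviated together (correlations 0.297, 0.179 and 0.103 for replicates 1 to 3), a pairing that comes from this check and not from the labels. The reported fits have no replicate block, and the block is an alternative.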

Additional observations from a re-analysis of the deposited data

How the results depend on the processing

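All 6 mGlu genes were lower under each of 21 alternatives, which reuse the same 6 samples. With the genomic span correction their median was -0.47, or -0.45 with the replicate block added, and Grm5 stood at only -0.04 in each of these fits. edgeR called 0 genes, and leaving out single samples gave 0 to 2, the 2 being without Snhg11-ASO replicate 1. DESeq2 called 250 genes, and 346, 265 and 209 without Snhg11-ASO replicates 1, 2 and 3. DESeq2 called Grm4 at -0.76 with all samples and at -0.76 without Snhg11-ASO replicate 1, and Grm7 at -0.65, and at -0.56 and -0.81 without replicates 1 and 2. The cause of the difference between tools was not tested. With the replicate block, which pairs same-numbered samples, edgeR called 0 genes, so no call at the adjusted threshold changed, while the unadjusted p went from 0.101 to 0.0252 for Grm3 and from 0.0436 to 0.0808 for Grm8. Limma-voom, added after seeing the data, called 0 of the 6, as it did 0 of the 19969 genes tested. Its unadjusted p-values ran from 0.00155 for Grm7 to 0.092 for Grm2. Per kb of the longest transcript, Control-ASO levels were 1.67 for Grm4, 55 for Grm5, 22.8 for Grm7 and 2.84 for Grm8, since that length is shorter than all exons merged. With 171 to 299 counts of Grm4 and 242 to 669 of Grm8 per sample, counting alone gives a coefficient of variation of 4.77% to 7.28% in these genes.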
